A study of Mus musculus with 7 samples.

Results

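The respiratory chain and ATP synthase were examined through the mRNAs of their subunits in mouse liver. The members were the genes of the deposited count table whose symbols matched a pattern for subunits. The patterns covered complex I (Nduf, then a, b, c, s or v and a digit), complex II (Sdha to Sdhd), complex III (Uqcr), complex IV (Cox4 to Cox8) and ATP synthase (Atp5). The mRNAs encoded by mitochondrial DNA (mt-Nd, mt-Cytb, mt-Co and mt-Atp) were included. This gave 103 of the 56691 genes in the table, 90 encoded in the nucleus and 13 in mitochondrial DNA, after 14 rows marked as pseudogenes by "-ps" were left out. GENCODE M21 lists 4 of the remaining genes as processed pseudogenes (Ndufs6b, Ndufb4c, Ndufa11b and Cox6c2) and the identifier of Ndufb1 as a noncoding RNA. Ndufab1 of complex I and Cyc1 of complex III did not match the symbol patterns and were not members. Livers of 4 control mice and of 3 mice given LPS were sequenced. All were male C57BL/6J animals, an inbred strain, bought at 8 weeks of age and housed for 2 weeks, and the LPS group was given 10 mg/kg of lipopolysaccharide 24 h before the liver was taken. Libraries were strand-specific and made from poly(A) RNA. What the control mice were injected with, if anything, is not named in the sources used here. The study's abstract mentions intraperitoneal injections over the 2 days before LPS, without saying whether control mice received them. The study also had mice given sulforaphane before LPS, which were not analysed here. Total counts per mouse lay between 14991022 and 20500391. That each library came from a separate mouse rests on the sample labels and the study's description.

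The respiratory chain passes electrons from NADH and succinate through complexes I to IV to oxygen and pumps protons across the inner mitochondrial membrane, and ATP synthase uses the return of these protons to make ATP. Complexes I, III and IV and ATP synthase are built from subunits of both genomes, whereas complex II is encoded in the nucleus alone. The liver is rich in mitochondria, which there serve fatty acid oxidation, gluconeogenesis and urea synthesis.

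Levels are given as CPM, the counts of a gene scaled to the size of the library after TMM factors. Summed over the 13 mitochondrially encoded mRNAs, control mice 1 to 4 held 244084, 134980, 68142 and 77978 CPM, and LPS mice 1 to 3 held 58784, 40798 and 42343 CPM. Every LPS mouse was below every control mouse, and control mouse 1 held 3.58 times the CPM of control mouse 3. The means were 131296 ± 80759 (SD, n = 4) and 47308 ± 9968 (SD, n = 3), and the difference of mean log2 values was -1.30. Summed over the 90 nuclear genes, the control mice held 12614, 12887, 10447 and 10191 CPM and the LPS mice 7612, 8794 and 8738 CPM. The groups did not overlap here either, with means of 11535 ± 1412 (SD, n = 4) and 8381 ± 667 (SD, n = 3) and a log2 difference of -0.46. These sums are a description and were given no test. In bulk tissue, fewer cells of a type and less RNA per cell cannot be told apart.

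The sum of mitochondrially encoded mRNA was 19.4, 10.5, 6.52 and 7.65 times the nuclear sum in control mice 1 to 4 and 7.72, 4.64 and 4.85 times in LPS mice 1 to 3. LPS mouse 1 lay within the control range of this ratio and LPS mice 2 and 3 lay below it. Within the LPS group, mouse 1 had the highest mitochondrial sum and the lowest nuclear sum. As a share of all counts, the mitochondrially encoded mRNAs made up 23.0%, 14.2%, 7.09% and 8.67% in the control mice and 6.22%, 3.70% and 3.82% in the LPS mice.

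**Figure D1:**
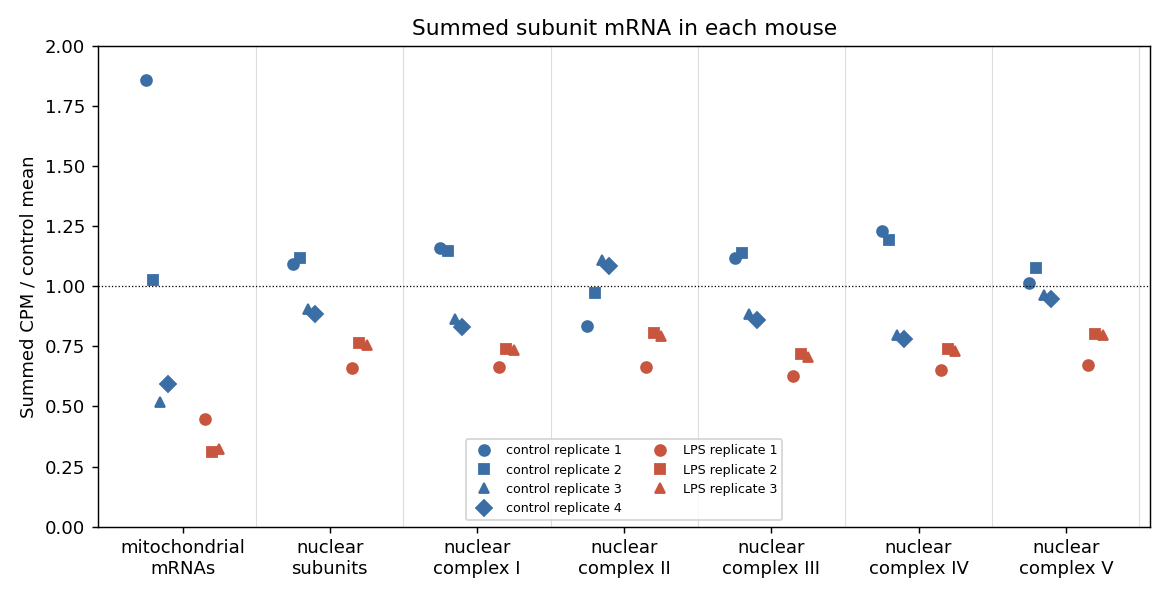
Summed CPM of each group of subunit mRNAs in each mouse (y axis, divided by the control mean, starting at 0) for the mitochondrially encoded mRNAs, all nuclear-encoded subunits and each complex. Control mice are blue and LPS mice red, with a marker for each replicate; the mitochondrial sum runs from 0.519 to 1.86 among controls and from 0.311 to 0.448 in LPS mice.

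Of the 103 members, 93 had enough counts to be tested, 80 nuclear and all 13 mitochondrial. By the edgeR quasi-likelihood test at an adjusted p below 0.05, 40 were lower in LPS mice, against 13.0% of all 13683 genes tested, and 2 were higher, against 13.3% of all genes. The 40 comprised 30 of the 80 nuclear genes and 10 of the 13 mitochondrial genes. Among better-measured genes, with a control mean of at least 10 CPM, 30 of 77 nuclear members were lower, and 18.1% of all such genes were. With a log2 fold change below -1 also required, 11 members were lower (7.31% of all genes tested) and 1 was higher with a change above 1 (7.81%). The 11 were the 10 mitochondrial genes and Uqcr11. All values of the LPS mice were below all control values for 36 nuclear and 7 mitochondrial genes (17.4% of all genes tested), and no tested member had all LPS values above the control values (18.1%). Of the 100 nuclear genes at 1000 CPM or more in control mice, 45 were lower and 22 higher, with a median SD of log2 CPM of 0.22 among control mice.

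The median log2 fold change was -0.52 over the nuclear members tested and -1.49 over the mitochondrial ones, against -0.01 over all genes tested. Without scaling factors the median of all genes moved to -0.13 and the split of all calls from 1773 lower and 1825 higher to 2057 lower and 1350 higher, while 60 subunit genes were called lower, 48 nuclear and 12 mitochondrial. Relative to that median, the nuclear and mitochondrial medians were -0.50 and -1.42, beside -0.51 and -1.48 with TMM factors. The count of 40 depended on single mice: it was 62 without control mouse 3, 24 without LPS mouse 1, 15 without LPS mouse 2 and 17 without LPS mouse 3. Of the mitochondrial genes alone, 7 were called lower without control mouse 1, 7 without control mouse 2, 2 without LPS mouse 2 and 3 without LPS mouse 3, and 8 were called by DESeq2. Of the nuclear genes, 49 were called lower without control mouse 3, 15 without LPS mouse 1, 13 without LPS mouse 2 and 14 without LPS mouse 3. Of the 40, 10 were called in each of the 7 fits that left out a mouse, namely mt-Nd2, mt-Cytb, Ndufa9, Sdhb, Uqcr11, Uqcrc1, Ndufa4, Cox5a, Cox6c and Atp5c1, and all 40 had a negative log2 fold change in each of these fits.

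LPS mice 2 and 3 were closer to each other than any other pair of mice within a group. Over 6918 of the 6932 tested genes with a control mean of at least 10 CPM, their median absolute log2 difference was 0.12. It was 0.20 and 0.21 between LPS mouse 1 and each of them and 0.18 to 0.35 between control mice. With the 2 summed into 1 sample, 14 subunit genes were called lower, 13 nuclear and 1 mitochondrial. What lies behind this likeness was not tested.

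Control mice 1 and 2 differed from control mice 3 and 4 in more than mitochondrial mRNA. Among nuclear members with a transcript of up to 745 bases (39 genes), the median log2 distance from the control mean was 0.43 and 0.31 in control mice 1 and 2 and -0.33 and -0.38 in control mice 3 and 4. The 38 longer members gave 0.12, 0.17, -0.14 and -0.18. Over all 308 genes of such lengths with a control mean of at least 10 CPM it was 0.31, 0.29, -0.29 and -0.29, and over 6588 longer genes -0.06, -0.03, 0.08 and 0.02, so short transcripts as a class were higher in control mice 1 and 2. In LPS mice the shorter members stood at -0.58, -0.47 and -0.43 and the longer members at -0.58, -0.41 and -0.43. There all shorter genes stood at -0.18, -0.13 and -0.12 and all longer genes at -0.06, -0.003 and -0.02. With a length trend removed from every library, the medians were -0.41 for nuclear and -1.31 for mitochondrial members, with 44 called lower. With control mice 1 and 2 left out together, the medians were -0.23 and -0.56, the log2 difference of the mitochondrial sum was -0.66 and 25 members were called lower, 21 nuclear and 4 mitochondrial. The part of transcript length in the remaining results was not tested.

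Mitochondrial DNA encodes core subunits only. The mRNA mt-Co1, for the catalytic subunit of complex IV, had 99041, 53289, 27104 and 31133 CPM in control mice 1 to 4 and 26281, 18068 and 18646 CPM in the LPS mice. All LPS values were lower than the lowest control value, though LPS mouse 1 was only slightly so. The log2 fold change was -1.33 ± 0.41 (SE, edgeR quasi-likelihood adjusted p = 0.0309), and the call was lost without control mouse 1 or 2 or LPS mouse 2 or 3, with adjusted p up to 0.118. For mt-Cytb, the cytochrome b of complex III and its only mitochondrially encoded subunit, the values were 48308, 27220, 13641 and 15727 CPM against 10428, 7460 and 7885 CPM. These groups did not overlap, and the log2 fold change was -1.61 ± 0.40 (SE, edgeR quasi-likelihood adjusted p = 0.00959). For mt-Nd2, a membrane subunit of complex I, 27202, 14549, 8092 and 9195 CPM stood against 5256, 3728 and 3704 CPM, again without overlap, with a log2 fold change of -1.80 ± 0.38 (SE, edgeR quasi-likelihood adjusted p = 0.00403). Both of these calls held in all 7 fits that left out a mouse and without control mice 1 and 2 together, where the adjusted p was 0.0180 for mt-Cytb and 0.00409 for mt-Nd2. With LPS mice 2 and 3 summed into 1 sample, mt-Nd2 (adjusted p = 0.0280) was the only mitochondrial gene called, and mt-Cytb was not (adjusted p = 0.0509).

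Among the other complex I mRNAs of mitochondrial DNA, all of which encode membrane subunits, log2 fold changes were -1.66 ± 0.43 (SE) for mt-Nd5, -1.53 ± 0.38 for mt-Nd4, -1.39 ± 0.38 for mt-Nd1, -1.09 ± 0.36 for mt-Nd6 and -2.18 ± 0.69 for mt-Nd4l, with adjusted p from 0.0106 to 0.0432 by the edgeR quasi-likelihood test. The calls of mt-Nd5, mt-Nd4 and mt-Nd1 were lost without LPS mouse 2 or 3, with adjusted p up to 0.0616, 0.0550 and 0.0760. The mRNA of mt-Nd6, the single mRNA of the opposite strand, had 4544, 2881, 1323 and 1512 CPM in control mice and 1418, 1078 and 1126 CPM in LPS mice. Here LPS mouse 1 was above control mouse 3, and the call was lost in 5 of the 7 fits that left out a mouse, those without control mouse 1 or 2 or any LPS mouse, with adjusted p up to 0.144. With 10.8, 3.22, 1.22 and 2.37 CPM in control mice against 1.43, 0.451 and 0.934 CPM, mt-Nd4l was near the bottom of the range, its groups overlapped, and its call was lost without control mouse 1 or 2 or LPS mouse 2 or 3, with adjusted p up to 0.128.

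Of the remaining mt mRNAs, mt-Co3, for a core subunit of complex IV, fell by 1.97 ± 0.59 (SE) on the log2 scale (adjusted p = 0.0264, edgeR quasi-likelihood), with 883, 277, 115 and 152 CPM in control mice and 117, 56.8 and 100.4 CPM in LPS mice. LPS mouse 1 exceeded control mouse 3 by little, so the groups overlapped, and the call was lost without LPS mouse 2 or 3, with adjusted p up to 0.108. The ATP synthase mRNA mt-Atp6 had 284, 170.3, 76.4 and 89.9 CPM in control mice and 66.8, 33.7 and 65.5 CPM in LPS mice, without overlap. Its log2 fold change was -1.48 ± 0.41 (SE, edgeR quasi-likelihood adjusted p = 0.0169), and the call was lost without LPS mouse 2 (adjusted p = 0.0803). Adjusted p was 0.0775 for mt-Nd3, 0.0648 for mt-Co2 and 0.132 for mt-Atp8, whose log2 fold changes were -1.27 ± 0.49, -1.24 ± 0.46 and -1.49 ± 0.68 (SE). With control mice 1 and 2 left out, mt-Nd3 was at 0.02.

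**Figure D2:**
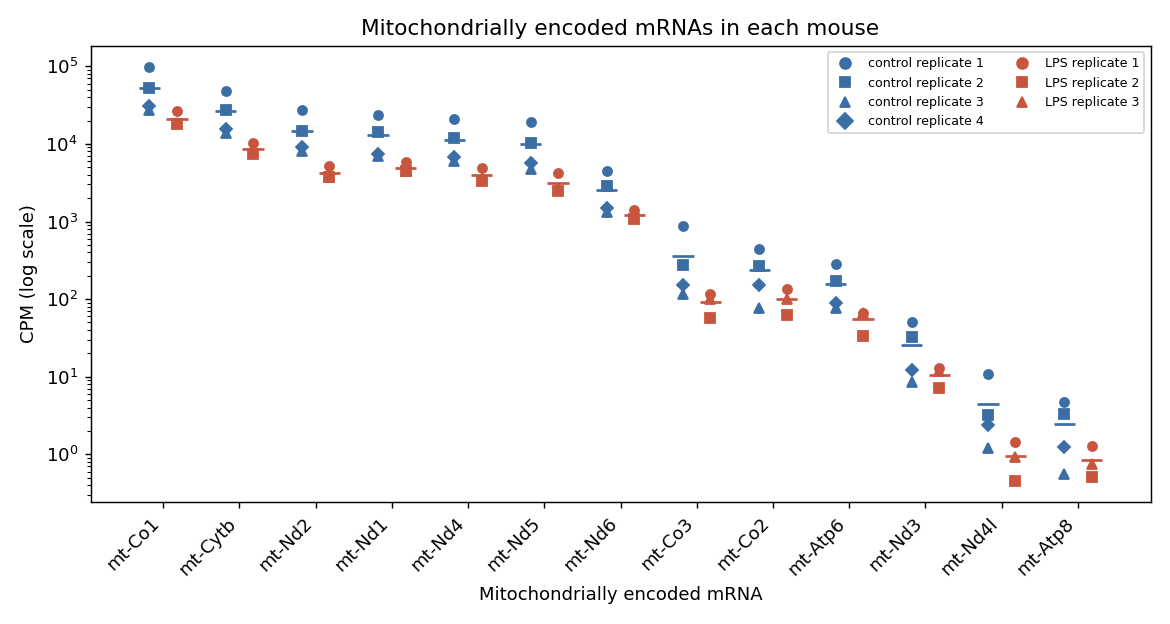
CPM (log axis) of each mitochondrially encoded mRNA in every mouse, with a bar at each group mean; control mice are blue, LPS mice red, ordered by control mean. Control mouse 1 is the highest point for all 13 mRNAs, and levels run from 52642 CPM for mt-Co1 to 2.46 CPM for mt-Atp8 in the control means.

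The spread among control mice was wider for the mitochondrially encoded mRNAs than for most genes. The SD of log2 CPM over the 4 control mice had a median of 0.87 for the 13 mRNAs, 0.36 for the nuclear members tested and 0.33 over all genes tested. For genes with a control mean of at least 10 CPM, the median was 0.35 for nuclear members and 0.23 over all genes. In LPS mice the medians were 0.41 for mitochondrial and 0.13 for nuclear members, and 0.23 over all genes. The highest control value was 3.71 times the lowest at the median of the mitochondrial mRNAs, against 1.67 times for nuclear members. The smallest such ratio was 3.36 for mt-Nd2 and the largest 8.80 for mt-Nd4l. Least variable among nuclear members in control mice were Atp5pb, Atp5c1, Ndufa10 and Uqcrc1, with SDs of 0.03, 0.05, 0.05 and 0.07.

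Near-identical copies of mitochondrial genes lie in the nuclear genome, and reads of the 2 cannot be told apart over identical stretches. In GENCODE M21, mt-Co2, mt-Atp6, mt-Co3 and mt-Nd4l matched Gm28661, Gm10925, Gm28437 and Gm10222 on chromosome 1 at 100% over 99.56%, 99.56%, 99.87% and 98.99% of their lengths. The match of mt-Nd3 to Gm28438 was 99.71% identical, and 1 of the 345 bases compared differed, by T3C counted from the first base of mt-Nd3. The first 30 bases are shown because they hold this difference, with the base in capitals.
mt-Nd3: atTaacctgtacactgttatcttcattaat
Gm28438: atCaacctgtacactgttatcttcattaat
Matches also covered 63.57% of mt-Nd4 (Gm28439, 100% identical) and 31.26% of mt-Co1 (Gm29216, 99.79% identical). Per kb of transcript, control means were 34072 CPM for mt-Co1 and 22923 CPM for mt-Cytb, but 455 CPM for mt-Co3, 346 for mt-Co2, 228 for mt-Atp6, 74.2 for mt-Nd3, 14.8 for mt-Nd4l and 12.0 for mt-Atp8. The 5 mRNAs with a copy of at least 99.71% identity over nearly their whole length, and mt-Atp8, were thus the lowest of the 13. Less similar copies covered nearly all of mt-Co1 (Gm13340, 97.61% identical), mt-Cytb (Gm11410, 92.91%) and mt-Nd6 (Gm11408, 93.64%), which were not among the lowest. Counts of the 7 copies at 99.71% identity or more summed to 2610, 1489, 437 and 713 CPM in control mice and 594, 322 and 457 CPM in LPS mice, with the highest value again in control mouse 1. Values of these mRNAs are uncertain, since the treatment of reads with several matches is not given in the sources used here, and the part of the copies in the low counts was not tested.

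Other RNAs of mitochondrial DNA were also lower. The ribosomal RNA mt-Rnr2 was at a log2 fold change of -1.90 ± 0.30 (SE, edgeR quasi-likelihood adjusted p = 0.000491) and mt-Rnr1 of -1.02 ± 0.34 (SE, adjusted p = 0.0416). Together they held 6965, 4270, 3619 and 2469 CPM in control mice and 2055, 1319 and 1286 CPM in LPS mice, and the sums did not overlap. For mt-Rnr1 alone the groups did overlap, with LPS mouse 1 at 1143 CPM above the lowest control at 914 CPM. Of 22 transfer RNA rows only mt-Tp held more than 3 counts in any mouse. Its levels were 127 CPM or more in every control mouse and 94.6 CPM or less in every LPS mouse.

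Complex I takes electrons from NADH, and its nuclear genes number 41 by symbol, here including Ndufa4l2 but not Ndufa4, a complex IV subunit. Of the 39 tested, 14 were lower (35.9%, against 13.0% of all genes tested) and 1 higher (against 13.3%) in LPS mice, with a median log2 fold change of -0.53. The summed level was 3475, 3448, 2591 and 2493 CPM in control mice and 1996, 2217 and 2211 CPM in LPS mice, without overlap. Ndufa9, an accessory subunit near the junction of the 2 arms, had 175, 182, 159 and 152 CPM in control mice and 102, 107 and 109 CPM in LPS mice. No LPS value reached a control value, and the log2 fold change was -0.66 ± 0.13 (SE, edgeR quasi-likelihood adjusted p = 0.00314). The 3 lowest log2 fold changes were those of Ndufs6b (-1.10 ± 0.56, SE), a processed pseudogene at about 1 CPM and not called (adjusted p = 0.178, edgeR quasi-likelihood), and of the accessory subunits Ndufa5 (-0.89 ± 0.28) and Ndufa13 (-0.88 ± 0.23). Ndufa5 overlapped between groups, with 66.2, 55.2, 26.9 and 30 CPM against 21.3, 23.8 and 27.2 CPM, and its call (edgeR quasi-likelihood adjusted p = 0.0353) was lost without control mouse 1 or 2 or any LPS mouse, with adjusted p up to 0.106. Ndufa13 had 146, 126, 76.2 and 74.2 CPM against 53.8, 57.5 and 60.6 CPM, without overlap, and its call was lost without LPS mouse 2 (adjusted p = 0.0521, against 0.0132 with all mice, edgeR quasi-likelihood).

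The other accessory subunits called lower, Ndufa6, Ndufv3, Ndufb4, Ndufb6, Ndufb5, Ndufs6, Ndufb10, Ndufb3, Ndufa10 and Ndufb8, had log2 fold changes from -0.77 to -0.45 and adjusted p from 0.00923 to 0.0464 by the edgeR quasi-likelihood test. All had LPS values below every control value, and each lost its call without at least 1 LPS mouse, with adjusted p up to 0.140. Calls of Ndufa6, Ndufs6, Ndufb3 and Ndufb8 were also lost without control mouse 1 or 2.

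Nuclear core subunits hold the flavin and iron-sulfur clusters or the quinone site. Ndufs8, with iron-sulfur clusters near that site, had 77.1, 73.7, 47.4 and 45.1 CPM in control mice and 33.7, 30.3 and 37.4 CPM in LPS mice, with no overlap. Its log2 fold change was -0.85 ± 0.21 (SE, edgeR quasi-likelihood adjusted p = 0.00901), and the call was lost without LPS mouse 2 (adjusted p = 0.0529). Ndufv1, Ndufv2, Ndufs1, Ndufs3 and Ndufs7 had log2 fold changes from -0.28 to -0.58 and adjusted p from 0.0538 to 0.213 by the edgeR quasi-likelihood test. Ndufs1, at -0.45 ± 0.19 (SE), was lower in control mice 1 and 2 than in 3 and 4, with 78.0, 77.9, 119 and 119 CPM, and had 59.5, 79.8 and 77.4 CPM in LPS mice. LPS mouse 2 lay above control mice 1 and 2, so the groups overlapped. The highest values in the complex other than Ndufa4l2 were Ndufa8 at -0.21 ± 0.18 (SE) and Ndufs4 at -0.25 ± 0.14, neither called. Ndufa8 was at 0.08 with control mice 1 and 2 left out.

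Ndufa4l2, a relative of Ndufa4 known as a target of hypoxia-inducible factor, had 2.41, 1.01, 1.65 and 0.726 CPM in control mice and 17.6, 2.77 and 2.18 CPM in LPS mice. LPS mouse 1 stood far above the others, and LPS mouse 3 was below control mouse 1. The log2 fold change was 2.41 ± 0.66 (SE, edgeR quasi-likelihood adjusted p = 0.0174) with all mice, and 0.79 without LPS mouse 1 (adjusted p = 0.337). The call was also lost without control mouse 2 or 4, with adjusted p of 0.0620 and 0.0504.

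Complex II oxidises succinate and is shared with the citric acid cycle. All 4 genes were tested, 1 was lower and none was higher by edgeR (13.0% and 13.3% of all genes), too few genes to set apart from that share, with 2 lower and none higher both at an unadjusted p below 0.05 and by DESeq2. Sdhb, the iron-sulfur subunit, had 207, 193, 159 and 153 CPM in control mice and 83.9, 102 and 103 CPM in LPS mice. The groups were well apart, with a log2 fold change of -0.89 ± 0.16 (SE, edgeR quasi-likelihood adjusted p = 0.00119). Sdha, the flavoprotein, had 207, 291, 424 and 401 CPM against 202, 235 and 233 CPM, and control mouse 1 lay among the LPS values (log2 fold change -0.57 ± 0.22, SE, edgeR quasi-likelihood adjusted p = 0.0783). The membrane anchors Sdhc and Sdhd were at -0.19 ± 0.14 and 0.14 ± 0.16 (SE), neither called, and Sdhd was at -0.0005 without scaling factors. The sum of the 4 genes was 660, 765, 876 and 854 CPM in control mice and 526, 635 and 625 CPM in LPS mice, and here control mice 1 and 2 were the lower ones.

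Complex III passes electrons from ubiquinol to cytochrome c. Of its 8 nuclear genes 5 were lower (62.5%, against 13.0% of all genes), with a median log2 fold change of -0.59, and none was higher by edgeR, at an unadjusted p below 0.05 or by DESeq2. Uqcr11, a small membrane subunit, had 120, 116, 68.5 and 61.6 CPM in control mice and 44.2, 44.8 and 39.2 CPM in LPS mice. The LPS values lay close together below all controls, and the log2 fold change of -1.10 ± 0.23 (SE, edgeR quasi-likelihood adjusted p = 0.00390) was the lowest of the called nuclear members. Uqcrc1, a core protein, had 202, 214, 214 and 196 CPM in control mice and 102, 123 and 127 CPM in LPS mice. Its control values were nearly level, and the log2 fold change was -0.82 ± 0.14 (SE, edgeR quasi-likelihood adjusted p = 0.000856).

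The other core protein, Uqcrc2, was at -0.59 ± 0.15 (SE), the small subunit Uqcrb at -0.71 ± 0.19 and the Rieske iron-sulfur protein Uqcrfs1 at -0.53 ± 0.15, with adjusted p of 0.0122, 0.0153 and 0.0211 by the edgeR quasi-likelihood test. Each had all LPS values below the control values. Uqcrc2 lost its call without LPS mouse 3, Uqcrb without LPS mouse 1 or 3, and Uqcrfs1 without any of the 3 LPS mice, with adjusted p up to 0.0607, 0.0635 and 0.0780. The 3 highest were Uqcrh, the hinge protein, at -0.07 ± 0.16 (SE), Uqcr10 at -0.43 ± 0.19 and Uqcrfs1, and of these only Uqcrfs1 was called. Uqcrq, at -0.59 ± 0.26 (SE), was not called. Uqcrh had 202, 260, 186 and 189 CPM in control mice and 170, 223 and 207 CPM in LPS mice, with the groups mixed.

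Complex IV reduces oxygen. Of its 20 nuclear genes, Ndufa4 included, 12 were tested, 4 were lower (33.3%, against 13.0% of all genes) and 1 was higher, below the 13.3% of all genes, with a median log2 fold change of -0.53. Ndufa4 had 325, 341, 232 and 220 CPM in control mice and 140, 159 and 154 CPM in LPS mice, without overlap. The log2 fold change was -0.89 ± 0.18 (SE, edgeR quasi-likelihood adjusted p = 0.00300). Cox6c, a small accessory subunit, had 320, 283, 180 and 174 CPM against 123, 135 and 140 CPM, and Cox5a, a matrix-side subunit, 132, 160, 118 and 115 CPM against 76.8, 83.7 and 86.7 CPM. Neither overlapped between groups, and their log2 fold changes were -0.85 ± 0.22 and -0.67 ± 0.15 (SE, edgeR quasi-likelihood adjusted p = 0.0116 and 0.00593). Cox7c (-0.69 ± 0.21, SE, adjusted p = 0.0290) did not overlap either, but its call was lost without control mouse 1 or 2 or any LPS mouse, with adjusted p up to 0.0991.

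Cox7a2l was the sole well-measured nuclear member called higher. It had 57.0, 102, 79.5 and 87.3 CPM in control mice and 96.8, 139 and 139 CPM in LPS mice. LPS mouse 1 lay below control mouse 2, and the log2 fold change was 0.62 ± 0.20 (SE, edgeR quasi-likelihood adjusted p = 0.0365). The call was lost without scaling factors (adjusted p = 0.121) and in 5 of the 7 fits that left out a mouse, those without control mouse 1, 3 or 4 and those without LPS mouse 2 or 3, with adjusted p up to 0.150. The regulatory subunit Cox4i1 was at -0.33 ± 0.19 (SE) and at 0.02 with control mice 1 and 2 left out, and Cox5b, Cox6a1, Cox6b1, Cox7a2, Cox7b and Cox8a lay between -0.36 and -0.61 with adjusted p from 0.0575 to 0.147 by the edgeR quasi-likelihood test. Their counterparts of muscle, lung or testis were nearly absent: Cox4i2, Cox6a2, Cox6b2, Cox7a1 and Cox8b had at most 18 counts in any mouse, and Cox7b2 and Cox8c had 0 in all, where 3 counts would be 0.212 CPM in the shallowest library. That floor covers counting error only. Cox4i2, the isoform of lung, had 1, 0, 0 and 1 counts in control mice and 11, 2 and 5 in LPS mice, all above the controls but too few to be tested. Cox6b2, the isoform of testis, had 0, 0, 1 and 2 counts against 4, 10 and 5, also all above the controls and not tested.

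ATP synthase has a rotor and a catalytic head. All 17 nuclear genes were tested and 6 were lower (35.3%, against 13.0% of all genes), with a median log2 fold change of -0.47, and none was higher by edgeR, at an unadjusted p below 0.05 or by DESeq2. The gamma subunit Atp5c1, the shaft of the rotor, had 301, 301, 320 and 296 CPM in control mice and 181, 209 and 209 CPM in LPS mice. Control values were nearly equal and well above the LPS values, with a log2 fold change of -0.61 ± 0.13 (SE, edgeR quasi-likelihood adjusted p = 0.00481). Atp5j, part of the outer stalk, had 249, 222, 147 and 139 CPM against 109, 102 and 108 CPM, without overlap, at -0.83 ± 0.21 (SE, edgeR quasi-likelihood adjusted p = 0.01), and was at the threshold without LPS mouse 2 (adjusted p = 0.0506).

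The catalytic beta subunit Atp5b had 673, 860, 970 and 963 CPM in control mice and 586, 803 and 747 CPM in LPS mice, and the alpha subunit Atp5a1 614, 688, 854 and 822 CPM against 536, 659 and 670 CPM. Control mouse 1 lay within the LPS range for both, and their log2 fold changes of -0.28 ± 0.18 and -0.26 ± 0.17 (SE) were not called (adjusted p = 0.275 and 0.287, edgeR quasi-likelihood). The small subunit Atp5k was at -0.79 ± 0.25 (SE, adjusted p = 0.0382) and overlapped between groups. Of the 3 genes for the c subunit of the rotor ring, which encode the same mature protein, Atp5g1 was at -0.47 ± 0.15 (SE, adjusted p = 0.0421), Atp5g3 at -0.50 ± 0.19 (adjusted p = 0.0662) and Atp5g2 at 0.08 ± 0.16 (adjusted p = 0.769) by the edgeR quasi-likelihood test, and Atp5g2 was at -0.04 without scaling factors. Calls of Atp5k and Atp5g1 were lost without control mouse 1 or 2 or any LPS mouse, with adjusted p up to 0.117 and 0.134. Atpif1, the inhibitor of ATP synthase and not a member by symbol, had 13.6, 15.4, 7.58 and 6.77 CPM in control mice and 10.9, 9.28 and 8.65 CPM in LPS mice, with LPS values inside the control range (log2 fold change -0.16 ± 0.28, SE, edgeR quasi-likelihood adjusted p = 0.720), and was at 0.42 without control mice 1 and 2.

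**Figure D3:**
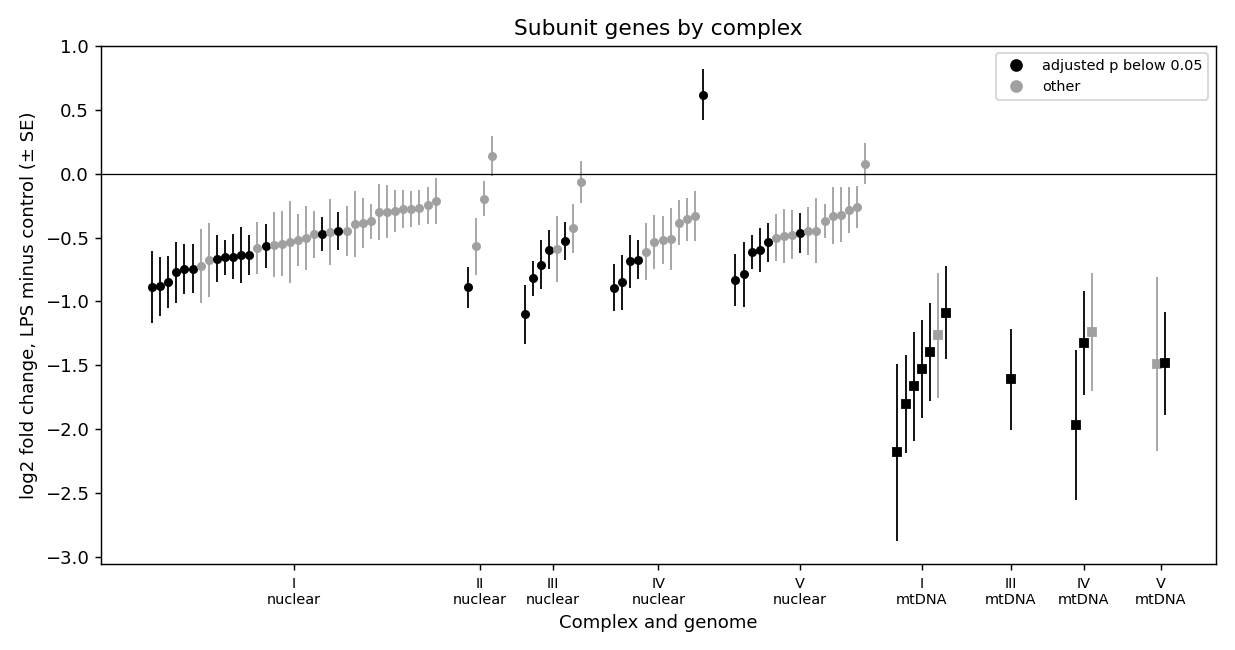
Log2 fold change of LPS against control (y axis, error bars SE) for each tested subunit gene, grouped by complex and genome; nuclear genes with a control mean under 10 CPM are left out, circles are nuclear and squares mitochondrial genes, and black marks an adjusted p below 0.05. Mitochondrial genes lie between -2.18 and -1.09, and Cox7a2l is the only black point above 0.

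Promoters of the nuclear members were searched on both strands for 3 short motifs linked to respiratory genes, in RefSeq promoters of build GRCm38.p6 that span 300 bases, and 69 of the 90 nuclear members had one. The reverse complement of the Nrf1 core, GCATGCGC, overlaps the core itself, so that 1 stretch can match on both strands. The Nrf1 core GCGCATGC was in 14.5% of these 69 and in 2.80% of all 27025 promoters, the Yy1 motif AAGATGGC in 13.0% and 2.88%, and the Ets motif CCGGAAGT in 7.25% and 4% of them. Of the Yy1 matches in members, only that of Atp5pb began before the transcript start, and the others lay after it. Log2 fold changes of members with the Nrf1 core ran from -1.10 to 0.08. A match is a description and not a site. Windows of 30 bases around matches are shown for Uqcr11 (chr10:80406869-80406898 and chr10:80406807-80406836, minus strand) and Sdhb (chr4:140961206-140961235, plus strand), whose calls held without any single mouse, with the motif or its reverse complement in capitals.
Uqcr11 Ets: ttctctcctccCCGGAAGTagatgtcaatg
Uqcr11 Nrf1: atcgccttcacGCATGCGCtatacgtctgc
Sdhb Nrf1: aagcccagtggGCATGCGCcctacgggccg

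Genes that act with the chain were taken from lists. Of 53 tested assembly factors, 7 were lower (13.2%, against 13.0% of all genes tested) and 3 higher (5.66%, against 13.3%), with a median log2 fold change of -0.11, so the lower share was that of all genes. Ecsit, a complex I assembly factor also known from Toll-like receptor signalling, was at -0.79 ± 0.14 (SE, adjusted p = 0.00140), and Ndufaf1, another factor for complex I, at -0.68 ± 0.14 (adjusted p = 0.00366) by the edgeR quasi-likelihood test. Coa6, a copper chaperone factor of complex IV, was at 1.07 ± 0.21 (SE, edgeR quasi-likelihood adjusted p = 0.00258), with 17.5, 12.4, 12.0 and 8.37 CPM in control mice and 24.8, 26.4 and 27.6 CPM in LPS mice, without overlap. Cox19, also for complex IV, was at -0.84 ± 0.17 (SE, edgeR quasi-likelihood adjusted p = 0.00313). Calls of Ndufaf6, Foxred1, Higd1a, Surf1 and Coa7 were each lost in 4 or more of the 7 fits that left out a mouse, among them that without LPS mouse 2, with adjusted p of 0.139, 0.113, 0.0654, 0.151 and 0.0849. Fmc1, for ATP synthase, was at -1.15 ± 0.27 (SE, edgeR quasi-likelihood adjusted p = 0.00700). Cyc1, the cytochrome c1 of complex III outside the symbol rule, was at -0.71 ± 0.14 (SE, edgeR quasi-likelihood adjusted p = 0.00265). Ndufab1, a complex I subunit also outside that rule, was at -0.49 ± 0.19 (SE, edgeR quasi-likelihood adjusted p = 0.0812). It was not called and its groups overlapped.

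Of 20 genes for electron carriers and ubiquinone synthesis, 5 were lower and 1 higher (25% and 5%, against 13.0% and 13.3% of all genes). The 2 related kinase-like proteins of ubiquinone synthesis went in opposite directions. Coq8a had 336, 361, 351 and 372 CPM in control mice and 89.4, 93.0 and 101 CPM in LPS mice, and Coq8b 5.52, 5.36, 9.04 and 5.95 CPM against 18.6, 33.0 and 22.3 CPM. Neither overlapped between groups, with log2 fold changes of -1.91 ± 0.14 and 1.92 ± 0.24 (SE, edgeR quasi-likelihood adjusted p = 7.66e-07 and 7.97e-05). Etfa, which feeds electrons of fatty acid oxidation to ubiquinone, was at -0.92 ± 0.14 (SE, edgeR quasi-likelihood adjusted p = 0.000432). Etfb, Etfdh and Cycs of the same list were not called, at -0.35 ± 0.25, 0.23 ± 0.23 and 0.07 ± 0.13 (SE). In the citric acid cycle, 6 of 14 genes were lower and 1 was higher (42.9% and 7.14%, against 13.0% and 13.3% of all genes). They included Cs, the citrate synthase, at -0.75 ± 0.13 and Idh3b, of isocitrate dehydrogenase, at -0.97 ± 0.15 (SE, edgeR quasi-likelihood adjusted p = 0.000750 and 0.000390), and the higher gene was Fh1, the fumarase, at 0.82 ± 0.16 (SE, edgeR quasi-likelihood adjusted p = 0.00237).

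Of 16 genes for replication and transcription of mitochondrial DNA, 1 was lower (Ssbp1) and 1 higher (Tfb1m), which is 6.25% each and below the share of all genes, with a median log2 fold change of -0.25. None of 17 genes for mitochondrial RNA processing was called by edgeR or DESeq2, with 1 lower and 0 higher at an unadjusted p below 0.05. The calls of Ssbp1 and Tfb1m were each lost in 5 of the fits that left out a mouse, among them that without LPS mouse 2, with adjusted p of 0.105 and 0.200. The mitochondrial ribosome gave 7 lower and 2 higher of 77 (9.09% and 2.60%, both below the 13.0% and 13.3% of all genes), with Mrpl14 at -1.11 ± 0.25, Mrps35 at -0.92 ± 0.20 and Mrps9 at -0.69 ± 0.14 (SE, edgeR quasi-likelihood adjusted p = 0.00551, 0.00406 and 0.00333). The higher genes Mrpl17 and Mrps12 lost their calls without LPS mouse 2 or 3 (Mrps12 also without control mouse 1 or 4), and without LPS mouse 3 had adjusted p of 0.0607 and 0.115. A list of 10 chaperones and proteases gave no call by edgeR, DESeq2 or an unadjusted p below 0.05. Of 7 genes for exchange across the mitochondrial membranes, 0 were lower and 2 higher (0% and 28.6%, against 13.0% and 13.3% of all genes). These were too few genes to set apart from that share. The higher genes Slc25a4 and Ucp2 were at 1.05 ± 0.32 and 1.15 ± 0.23 (SE, edgeR quasi-likelihood adjusted p = 0.0287 and 0.00272). The call of Slc25a4 was lost without control mouse 3 or 4 or LPS mouse 1 or 3, with adjusted p up to 0.113.

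Among 11 tested nuclear regulators of respiratory genes, 2 were lower and 1 was higher (18.2% and 9.09%, near the 13.0% and 13.3% of all genes). Ppargc1a, a coactivator of mitochondrial genes and of gluconeogenesis, had 3.82, 2.71, 5.01 and 3.58 CPM in control mice and 9.49, 19.8 and 18.9 CPM in LPS mice. All LPS mice were above all controls, and the log2 fold change was 2.08 ± 0.29 (SE, edgeR quasi-likelihood adjusted p = 0.000168). Esrrg, an orphan nuclear receptor, was at -2.51 ± 0.72 and Gabpb1, a subunit of the Ets factor GABP, at -0.73 ± 0.20 (SE, edgeR quasi-likelihood adjusted p = 0.0211 and 0.0159), and both calls were lost without LPS mouse 3 (adjusted p = 0.0654 and 0.0622), that of Esrrg also without LPS mouse 2 (0.0645) and that of Gabpb1 without LPS mouse 1 (0.0559). Esrrg was near the bottom of the range, with 4.39, 2.15, 0.855 and 3.34 CPM in control mice. Its LPS values were 0.783, 0.0644 and 0.498 CPM, from 17, 1 and 8 counts. The others, Nrf1, Gabpa, Ppargc1b, Ppara, Yy1, Nrip1, Esrra and Pprc1, lay between -0.89 and 0.43 and were not called.

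Cell type markers also differed. Of 10 hepatocyte markers 4 were lower and 1 higher (40% and 10%, against 13.0% and 13.3% of all genes), and their sum was 66409, 65016, 89603 and 77651 CPM in control mice and 44144, 48917 and 48901 CPM in LPS mice. Alb, the most counted of them, was at -0.93 ± 0.24 (SE, edgeR quasi-likelihood adjusted p = 0.0137), a call lost without LPS mouse 2 or 3 (adjusted p = 0.0618 and 0.0641). The call of Ttr, at -1.23 ± 0.18 (SE, edgeR quasi-likelihood adjusted p = 0.000254), held in all 7 fits that left out a mouse. Most of the sum was Alb, and the median log2 fold change of the 10 markers was -0.14. Tat, an enzyme of tyrosine breakdown, was higher at 1.40 ± 0.26 (SE, edgeR quasi-likelihood adjusted p = 0.00166), and Cps1, of urea synthesis, was at 0.62 ± 0.22 with all LPS values above the control values but not called (adjusted p = 0.0527). All 6 tested neutrophil markers of 8 were higher (100%, against 13.3% of all genes). The 8 summed to 5.09, 4.04, 1.53 and 2.85 CPM in control mice against 205, 149 and 150 CPM in LPS mice. S100a9 was the most counted, with 103, 73.6 and 72.4 CPM in LPS mice. The Kupffer cell and macrophage sum was 133, 196, 182 and 117 CPM in control mice and 673, 172 and 178 CPM in LPS mice, with 1 marker lower and 3 higher of 8 (12.5% and 37.5%, against the same 13.0% and 13.3%). The higher markers were Marco, Lyz2 and Adgre1 and the lower one was Clec4f, each called in all 7 fits that left out a mouse. Lyz2 had 19.1 to 40.4 CPM in control mice and 84.4, 69.3 and 74.1 CPM in LPS mice. Adgre1 had 2.34 to 4.92 CPM against 18.7, 8.63 and 10.1 CPM. Marco lay between 2.37 and 5.55 CPM in control mice and Clec4f between 43.4 and 69.9 CPM, without overlap with LPS mice. Cd5l and Csf1r were not called. Within the LPS group, mouse 1 stood apart in several genes of this list. Marco, the most counted gene of the list, had 410 CPM in it against 66.5 and 65.6 CPM in LPS mice 2 and 3, Cd5l 75.8 against 4.90 and 3.30 CPM, Csf1r 36.9 against 13.1 and 14.9 CPM, and Clec4f 24.1 against 5.48 and 7.28 CPM.

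Sinusoidal endothelium gave 2 lower and 2 higher of 6 (33.3% each, against 13.0% and 13.3% of all genes), with sums of 96.4, 125, 78.9 and 108 CPM against 134, 69.8 and 66.9 CPM, and Stab2 was the most counted. Of 5 erythroid markers 4 were lower (80%, against 13.0%), with sums of 307, 183, 232 and 179 CPM against 136, 53.9 and 53.8 CPM, led by Hbb-bs, whose call was lost without control mouse 1, 2 or 3 or LPS mouse 2 or 3, with adjusted p up to 0.181. Of the other 3, Hba-a1 lost its call in 5 of the 7 fits that left out a mouse, with adjusted p up to 0.147, and Hbb-bt without LPS mouse 2 or 3 (adjusted p = 0.0660 and 0.0686). Alas2 was called in all 7 of these fits, at log2 fold changes from -1.51 to -1.31. By DESeq2, 2 of the 5 were lower. Of the 8 markers of striated muscle and brown fat, 5 had 0 counts in every mouse and Mylpf, the most counted, reached at most 0.947 CPM. The part of cell composition in the subunit results was not tested.

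Limits apply to all of these values. The groups held 4 and 3 mice, and control mice 1 and 2 differed from control mice 3 and 4 in mitochondrial mRNA and in short transcripts. Of the 40 lower calls, 30 were lost in at least 1 fit that left out a mouse. Levels of mRNA were measured, and protein, respiration and mitochondrial DNA were not. The sources do not name what the control mice were given, so injection and LPS cannot be told apart. Libraries were made from poly(A) RNA, and tail length of mitochondrial mRNAs was not measured.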

How the data were processed

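Liver RNA of 4 control and 3 LPS mice was compared. The authors deposited raw counts of reads per gene for 56691 genes; per the submitters' processing notes cutadapt 1.9.1, HISAT2 2.2.1, HTSeq 0.6.1 and DESeq2 1.34.0 were used with build GRCm39. Libraries were strand-specific, but the annotation, the strand setting of the counting and the treatment of reads with several matches are not given in the sources used here. Of the gene identifiers, 52073 were in GENCODE M21, including all 103 members, and it supplied transcript lengths (median over basic protein-coding transcripts) and the sequences searched for nuclear copies with BLAST+ 2.17.0.

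Counts were filtered by filterByExpr, scaled by TMM and compared in edgeR 4.0.16 (R 4.3.3) by its quasi-likelihood test, in a model of condition alone. Benjamini-Hochberg adjustment ran over all 13683 genes that passed, and calls needed an adjusted p below 0.05. The SE was derived from the F statistic. Sums over members were given no test. Of the 90 nuclear members 69 had a RefSeq GRCm38.p6 promoter, the first listed being used. The members and lists were chosen with earlier results of these data known. Genes named are all mt mRNAs, the 3 lowest and 3 highest nuclear members of each complex, catalytic core subunits, tissue isoforms, Atpif1, up to 3 called genes in each direction from each list, all regulators, and the most counted gene of each marker list; other genes were named after their values were seen, and 1 item is not reported here. Ndufa4l2 was counted with complex I by its symbol. Alternatives were RLE factors, no factors, mitochondrial genes left out of the scaling, DESeq2 1.42.0, no filter, a minimum of 10 counts in each library, an adjusted p below 0.01, a log2 fold change threshold of 1, the replicate number as a block, each mouse left out and LPS mice 2 and 3 summed. Removing a length trend and leaving out control mice 1 and 2 together were added after the data were seen. The code was tested on simulated counts. Tables and plots were made in Python 3.11.15.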

Additional observations from a re-analysis of the deposited data

Results flagged for a closer look

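For the 4 control mice, the gap between the highest or lowest value and its neighbour was compared with the range for 183 genes and sums, and 4 exceeded the critical value of Dixon's test, which chance alone exceeds in about 1 in 20 groups. Coq8b stood out in control mouse 3 (9.04 CPM, ratio 0.84) and Lyve1, a sinusoidal endothelium marker, in control mouse 4 (7.74 CPM, ratio 0.923). Retnlg, a neutrophil marker, was 0 in every control mouse but control mouse 4 (0.0484 CPM, ratio 1.0). Of the subunit genes, only Cox6a2, the isoform of muscle, exceeded it, with 10 counts in control mouse 2 (0.631 CPM, ratio 0.923) and at most 1 in the other control mice. None of the sums did, and 5 subunit genes at 0 in every control mouse could not be examined.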

How the results depend on the processing

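The number of subunit genes called lower, 40 as reported, was 14 (13 nuclear and 1 mitochondrial) with LPS mice 2 and 3 summed into 1 sample, 25 without control mice 1 and 2 together (21 of the 40 and 4 others), 11 at an adjusted p below 0.01 and 11 with the fold change threshold, and ranged from 15 to 62 when each mouse was left out. The number called higher, 2 as reported, was 1 without scaling factors, with LPS mice 2 and 3 summed, without control mice 1 and 2, by DESeq2 and with the fold change threshold, 0 at an adjusted p below 0.01, and 0 to 1 when each mouse was left out. All genes called, 3598 with the settings as reported, were 2084 at an adjusted p below 0.01 and 2068 with the fold change threshold. Some of these settings had fewer samples or a stricter threshold, and the cause of the changes was not tested. The log2 differences of summed CPM ranged from -1.56 to -0.94 (mitochondrial) and from -0.52 to -0.38 (nuclear) when each mouse was left out.

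With the replicate number as a block, 48 subunit genes were lower and 3234 genes were called in all. Deviations of mice sharing a number correlated at 0.22, -0.06 and 0.09, so the numbers were not taken as pairs.

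Signs changed in genes that were not called with the settings as reported. Without scaling factors Atp5g2 was at -0.0436 and Sdhd at -0.0005. With the length trend removed Nrip1 was at 0.0012 and Uqcrh at 0.0302. Without control mice 1 and 2, Cox4i1 was at 0.0198, Ndufa8 at 0.0804, Uqcrh at 0.0769 and mt-Nd3 at 0.0225. When each mouse was left out, Atp5g2 ranged from -0.011 to 0.1904, Nrip1 from -0.146 to 0.0958, Uqcrh from -0.1473 to 0.0428 and Yy1 from -0.1742 to 0.0007. Atpif1 was at 0.4151 without control mice 1 and 2 and ranged from -0.3444 to 0.0419 when each mouse was left out. Of 118 named genes tested, 31 lost their call with LPS mice 2 and 3 summed.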
